A study of Mus musculus with 2 samples.

Results

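The genes of the 4 *Hox* clusters, with the flanking *Evx* genes and the antisense and long noncoding transcripts between them, were examined in mouse ureter explants after a short block of WNT secretion. Members were all non-control probes of the array whose gene name is a *Hox* gene of cluster A, B, C or D, an antisense transcript named after one, or *Evx1*, *Evx2*, *Hottip* or *Hotair*. This gave 53 probes under 45 gene names, out of 39429 probes under 29924 names. They cover 39 *Hox* genes (11 in HoxA, 10 in HoxB, 9 in HoxC and 9 in HoxD), both *Evx* genes, and the noncoding transcripts *Hottip*, *Hoxa11os*, *Hoxb5os* and *Hoxd3os1*. No probe carried the name *Hotair*, which was not analysed here. Ureters of wildtype NMRI embryos were explanted at E11.5 and cultured for 18 h in medium with 10 µM IWP-2, or with DMSO (2:1000) as control. IWP-2 inhibits PORCN, the acyltransferase that WNT proteins need in order to be secreted. Each of the 2 arrays held RNA of its own treated pool and its own control pool of ureters, and the dyes were swapped between the arrays. Pools and dye orientation thus changed together, and their parts in a difference between arrays cannot be told apart. Nothing states whether the pools came from separate litters or dissections, so p-values refer to these pools alone. In limma they combine the spread of a gene between the 2 arrays with the typical spread over all genes. The paper states that ureters were clipped at the kidney junction and above the bladder, and checked by eye for other tissue. The explant holds ureteric epithelium, ureteric mesenchyme and whatever neighbouring tissue still came along in the dissection, and the sex of the embryos was not determined.

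HOX proteins are homeodomain transcription factors. Genes at the same place in different clusters form a paralogue group, numbered from 1 at one end of the cluster to 13 at the other, and genes of high number are switched on later and further towards the tail of the embryo. The group 13 genes act in the cloacal region, the genital tubercle and the ends of the limbs, and the group 10 and 11 genes in the kidney and its stroma. *Evx1* and *Evx2* encode homeodomain repressors and lie beyond *Hoxa13* and *Hoxd13*. *Hottip* is a long noncoding RNA transcribed from the far end of HoxA and known for keeping the neighbouring *Hoxa* genes active, and *Hoxa11os* is transcribed from the strand opposite *Hoxa11*.

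Of the 45 members, 42 were well above background and were tested together with all 20124 genes. In all 42 the probe was well above background in both channels on both arrays. *Hoxb1* and *Hoxc12* were not well above background in any channel. *Hoxc13* was above background on array 1 alone, and therefore was not tested. Its intensity was 125 in control and 298 in treated on array 1, and 78 and 81 on array 2, with log2 changes of 1.26 and 0.06. Across the whole table, the share of spots well above background was 68.6% to 70.7% by channel, and Pearson's r between the changes on the 2 arrays was 0.465 over genes, which are not independent replicates. The median SD between arrays was 0.11 on the log2 scale over all genes and 0.15 over the 42 members, and the spots of one member probe had a median SD of 0.07 on array 1 and 0.04 on array 2.

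Among the lowest values were those of noncoding transcripts at the group 13 end of HoxA, whose identity rests on a single probe each. Their probe sequences are given here because the names alone say little about what was measured. Positions are those of the array files in mouse build mm9, and each sequence reads 5′ to 3′ on the strand given. The *Hottip* probe lies at chr6:52216191-52216250 on the plus strand, the *Hoxa11os* probe at chr6:52199709-52199768 on the plus strand, the probe of 5730457N03Rik at chr6:52258383-52258442 on the minus strand, and the probe of 9530018H14Rik at chr6:52206240-52206299 on the minus strand. RefSeq lists 5730457N03Rik as an older name of *Evx1os*, the transcript opposite *Evx1*, which is used below.
Hottip: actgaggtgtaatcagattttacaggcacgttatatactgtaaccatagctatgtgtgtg
Hoxa11os: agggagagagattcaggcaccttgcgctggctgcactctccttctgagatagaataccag
Evx1os: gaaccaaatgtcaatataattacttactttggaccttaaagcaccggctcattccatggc
9530018H14Rik: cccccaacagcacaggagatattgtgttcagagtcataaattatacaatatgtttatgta

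At a false discovery rate of 0.05 in limma, 6 of the 42 tested members were lower in IWP-2 and 0 were higher. Over all genes tested, 1.15% were called lower and 0.626% higher. The 6 were *Evx1*, *Hottip*, *Hoxa13*, *Hoxd13*, *Hoxa11os* and *Hoxd12*, all from the group 13 ends of HoxA and HoxD. At an unadjusted p under 0.05, 9 members had a higher and 9 a lower value, and over all genes 8.67% and 4.74% had such a p with a higher and a lower value. With the ratios centred on the median in place of loess, 0 members had such a p with a higher and 7 with a lower value. In 11 of 12 alternative settings 0 members were called higher. With the deposited fold changes, which are rounded to 1 decimal, 5 were, beside 1038 of all 20124 genes tested. Of these genes, 232 were called lower with loess and 36 with median centring. The calls of *Evx1* and *Hottip* held under that centring, while *Hoxa13*, *Hoxd13*, *Hoxd12* and *Hoxa11os* kept their direction and lost the call (adjusted p from 0.0502 for *Hoxa13* to 0.265 for *Hoxd12*). In bulk RNA, fewer cells of a type and less RNA per cell cannot be told apart.

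*Evx1* showed the lowest mean change of all members under loess with a background offset. In the processed signals of the scanner software, *Hottip* (-2.38, too dim there for the intensity filter described below) and *Hoxb13* (-2.11) were lower than *Evx1* (-1.96). The normalized intensity of *Evx1* was 7657 in the control and 1789 in the treated channel on array 1, and 8182 and 2458 on array 2. Treated was below control on each array (levels were not scaled between arrays, so channels are compared within an array). The mean log2 change was -1.92 ± 0.26 (SD, n = 2), a 3.77-fold lower level (adjusted p = 0.00206 in limma). *Hottip* had intensities of 503 in control and 162 in treated on array 1, and of 590 and 182 on array 2. Treated was again the lower channel on each array, and the changes of -1.64 and -1.69 differed by less than the median SD between arrays (adjusted p = 0.00162 in limma).

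*Hoxa13*, required for the hindgut, the genital tubercle and the digits, was measured by 2 probes. The brighter probe gave 6923 in control and 2808 in treated on array 1, and 8756 and 3751 on array 2, a mean log2 change of -1.26 ± 0.06 (SD, n = 2; adjusted p = 0.00422 in limma). The other probe gave -1.25 and -1.15 on the 2 arrays, so that both probes of the gene were more than 2-fold lower on each array. *Hoxa11os* fell from 15107 to 7584 on array 1 and from 15313 to 8514 on array 2, by 0.99 and 0.85 on the log2 scale (adjusted p = 0.0127 in limma). *Hoxa11* itself, from the opposite strand, had changes of -0.26 and -0.06 and was not called (adjusted p = 0.666 in limma). The antisense change was thus below that of the sense gene by 0.73 on array 1 and 0.79 on array 2, although the difference was not tested and the values come from different probes.

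In HoxD, *Hoxd13*, the partner of *Hoxa13* in the genital tubercle and limb, and its neighbour *Hoxd12* passed the threshold. *Hoxd13* had intensities of 43695 in control and 16616 in treated on array 1, and of 42781 and 25345 on array 2. Treated was below control on each array, but the size differed, with changes of -1.39 and -0.76 (mean -1.08 ± 0.45, SD, n = 2; adjusted p = 0.0327 in limma). This call was lost in 6 of 12 alternative settings, over which its adjusted p ranged from 0.011 to 0.387. *Hoxd12* fell from 18246 to 10516 on array 1 and from 20151 to 11423 on array 2, by 0.80 and 0.82 on the log2 scale (adjusted p = 0.0171 in limma). *Evx2*, 15.7 kb beyond the *Hoxd13* probe, was not called. It had intensities of 384 in control and 369 in treated on array 1, and of 426 and 372 on array 2, with a mean change of -0.13 (adjusted p = 0.762 in limma), and its second, dimmer probe gave -0.24 and -0.67.

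*Hoxb13*, known from the hindgut, the tail and the prostate, was the single group 13 gene tested that was not called. Its intensity was 1196 in control and 189.5 in treated on array 1, and 1939 and 1079.9 on array 2. Treated was below control on each array, but the changes of -2.66 and -0.84 had the largest SD between arrays of all members (1.28), and the mean of -1.75 did not pass (adjusted p = 0.0819 in limma). With a variance prior that follows intensity and without robust estimation, a setting chosen after seeing the data, its adjusted p was 0.0434 (range over 12 alternatives 0.0434 to 0.577). Of the 5 tested markers of hindgut and cloacal endoderm, *Foxa2* had -1.54 and -0.22 on the 2 arrays, *Foxa1* -0.50 and 0.33, *Cdx1* -0.08 and -0.21, *Vil1* 0.15 and 0.30, and *Sox17* 0.73 and 1.07. The list thus did not move one way, and its part in the *Hoxb13* value was not tested.

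**Figure D1:**
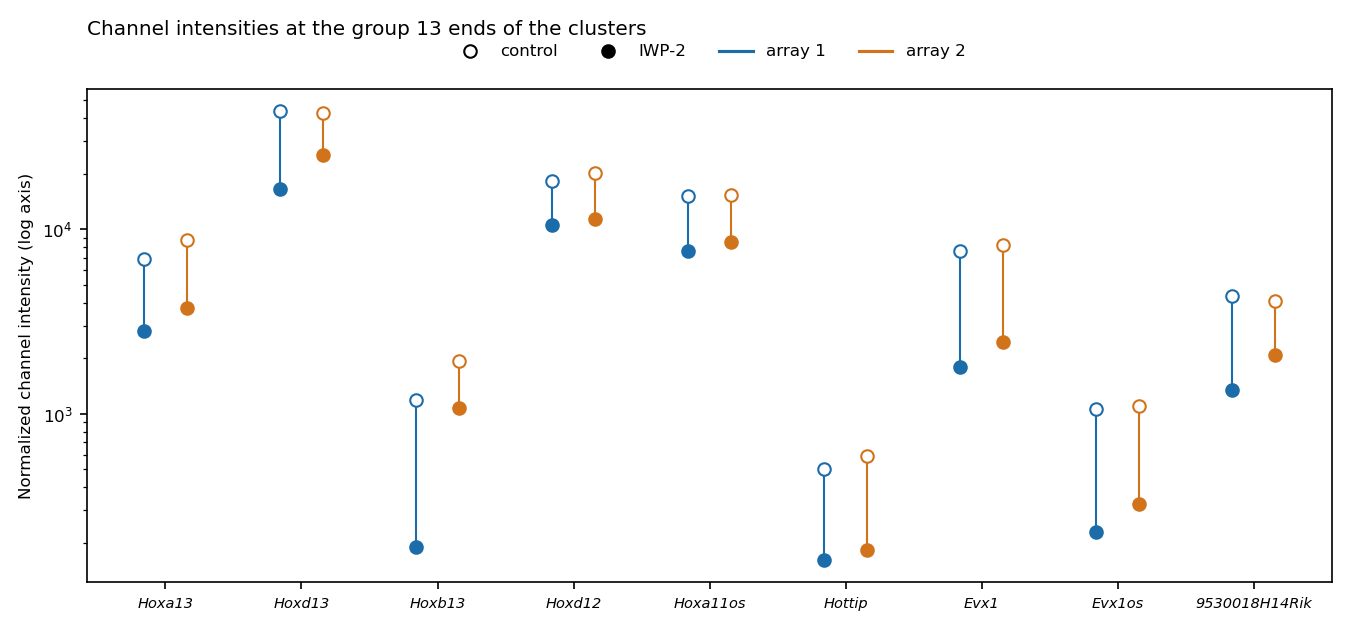
Normalized channel intensity on a log axis for 7 members and 2 further transcripts at the group 13 ends of the clusters. Open circles are control and filled circles IWP-2, joined within an array (array 1 blue, array 2 orange); for each of the 9 transcripts the treated channel is the lower one on both arrays. Levels of different probes are not comparable with each other.

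A filter modelled on the cut-offs of the study, an intensity of 100 or more in the brighter channel and a fold change of 2 or more the same way on both arrays, was also applied to the processed intensities. Without any test, it kept *Evx1* (4.36-fold lower on array 1 and 3.48-fold on array 2) and *Hoxa13* (2.46-fold and 2.40-fold lower), and 0 members in the other direction. *Hottip* had log2 changes of -2.41 and -2.36 in the processed intensities and was left out for its low intensity. Over all 29899 gene names with a value, 0.167% passed as lower and 0.0368% as higher. At a fold change of 1.5, 6 members passed as lower, beside 0.552% of all names.

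The called members lay next to each other. In HoxA, all 6 transcripts tested over the 68.6 kb from the *Hoxa11os* probe to the *Evx1* probe were called lower, among them *Evx1os* and 9530018H14Rik, which the naming rule leaves out. Next to them, *Hoxa11* and *Hoxa10* (-0.31 and -0.32, adjusted p = 0.217 in limma) had values slightly below 0, and from *Hoxa9* to *Hoxa2* the mean changes lay between -0.01 and 0.34. In HoxD, *Hoxd11* (-0.13 and -0.44) and *Hoxd10* (-0.07 and -0.30) likewise stood between the called genes and *Hoxd9*, whose changes were 0.34 and 0.09. In HoxB, 79.9 kb without a *Hox* gene separate *Hoxb13* from *Hoxb9*, the next gene of the cluster, and *Hoxb9* had changes of 0.27 and -0.06. The limits of the HoxA stretch were set after its values were seen.

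**Figure D2:**
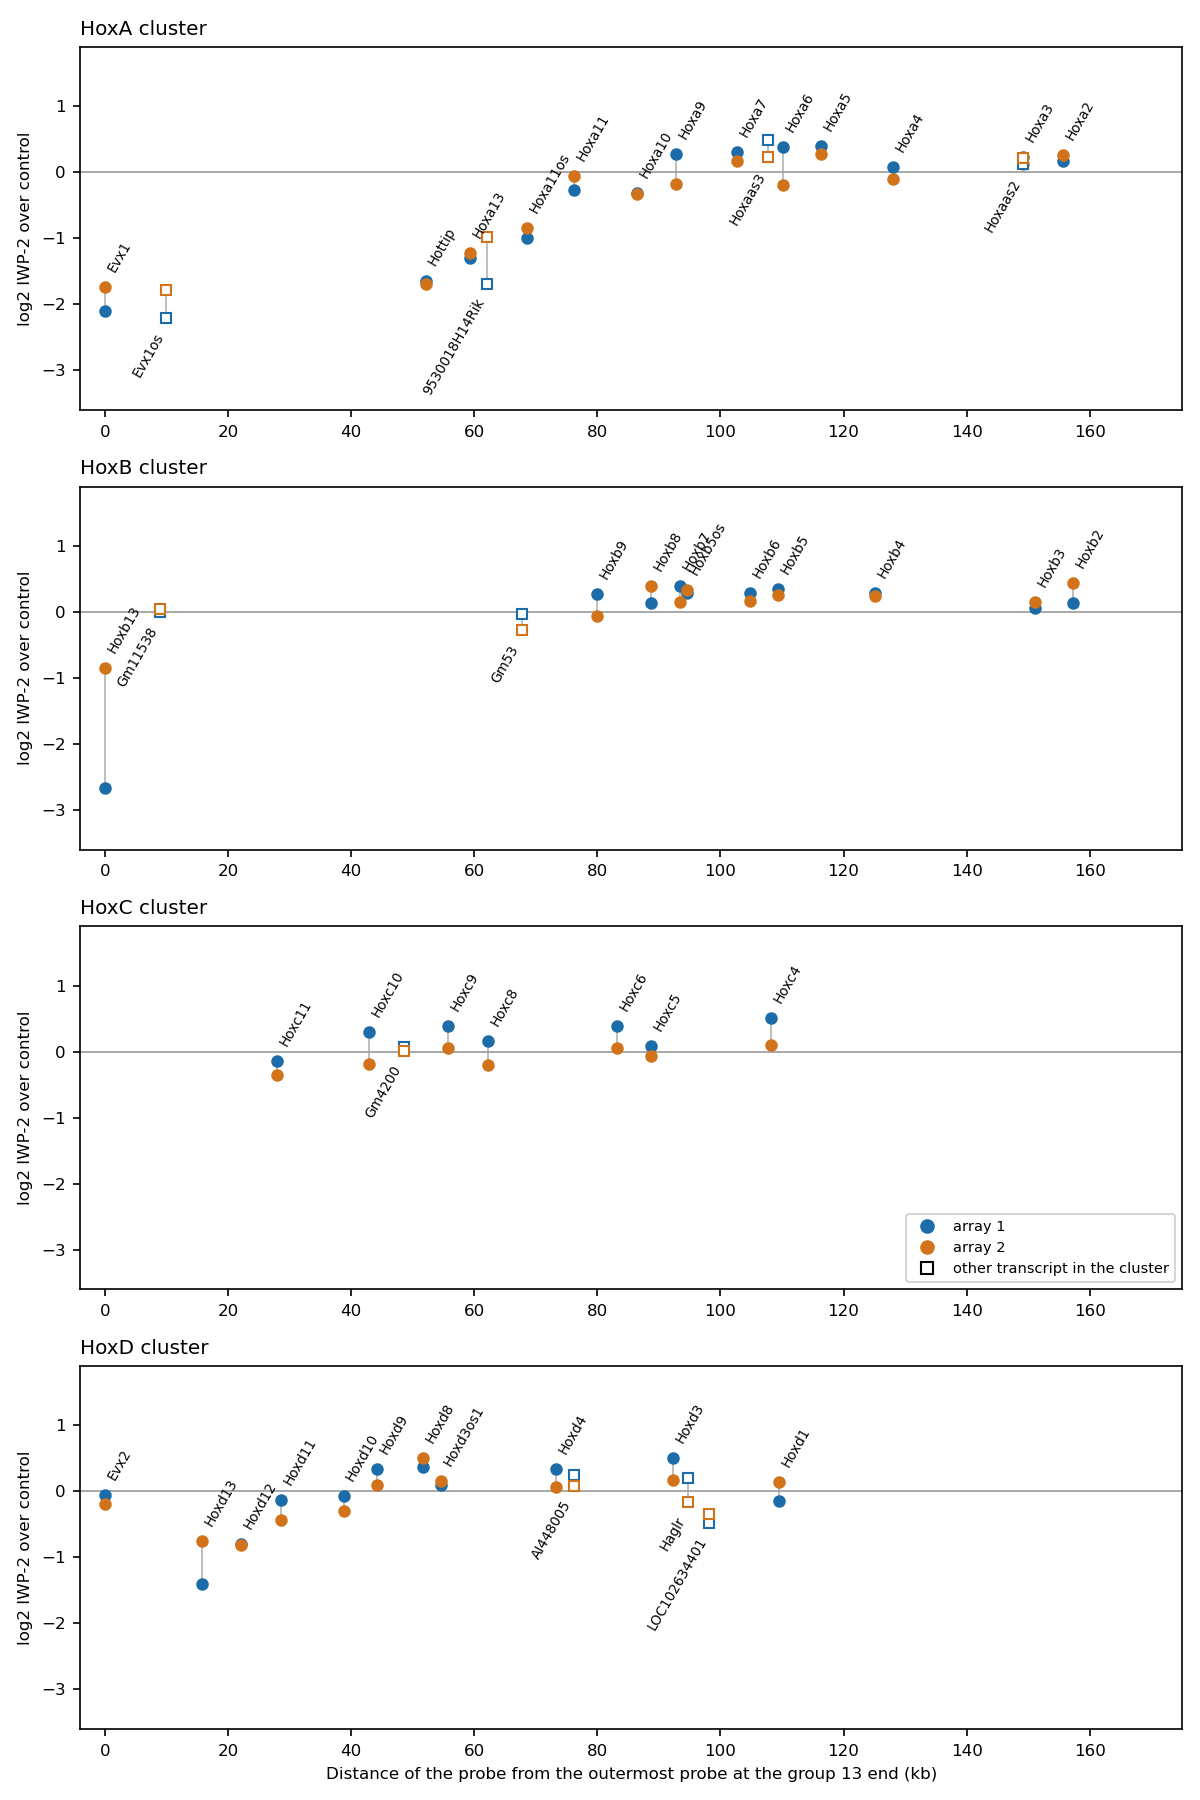
Log2 ratio of IWP-2 over control of tested genes against the distance of its probe, in kb, from the outermost member probe at the group 13 end of each cluster (array 1 blue, array 2 orange; filled circles are members, open squares other transcripts of the same interval). Values far below 0 sit at the group 13 ends of HoxA, HoxB and HoxD, whereas HoxC, whose groups 12 and 13 were not tested, stays between -0.35 and 0.50.

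By paralogue group, the 4 tested genes of groups 12 and 13 were lower on both arrays, with a median change of -1.35 on array 1 and -0.83 on array 2. The untested *Hoxc13* had changes of 1.26 and, at background, 0.06. Groups 9 to 11 (10 genes) had medians of 0.10 and -0.19, of opposite sign on the 2 arrays. Groups 4 to 8 (15 genes) had medians of 0.33 and 0.16, and groups 1 to 3 (7 genes) of 0.14 and 0.16. Over all genes tested, the medians were -0.01 and 0.02. Among the 3 tested genes of group 10 and the 3 of group 11, 5 of 6 were lower on both arrays, and none of these was called (lowest adjusted p = 0.217 in limma, with 2 of 6 at an unadjusted p under 0.05). Over the 36 tested *Hox* genes, Spearman's rho between group number and change was -0.41 on array 1 and -0.69 on array 2, a description across genes that share arrays and, within a cluster, neighbourhood.

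None of the 26 tested genes of groups 1 to 9 was called in limma, with 8 of them at an unadjusted p under 0.05, all towards higher values. With median centring, 0 of them had such a p in either direction. Of these 26, 18 had values above 0 on both arrays, 0 below 0 on both, and 8 opposite signs, and their median was 0.22 under loess. With median centring, 8 of the 26 were above 0 on both arrays, 1 was below 0 on both and 17 had opposite signs. The shares above and below 0 on both were 30.8% and 3.85%, beside 20% and 20.6% of all genes. Under that centring 11965 of all 20124 genes had opposite signs, and their medians were 0.11 on array 1 and -0.14 on array 2. With median centring *Hoxc8* and *Hoxd1*, and in the processed signals *Hoxc5* and *Hoxd1*, had a mean of the other sign. Over all members, 47.6% were above 0 on both arrays against 28.5% of all genes, and 31.0% were below 0 on both against 27.5%. With median centring these shares were 23.8% against 20% above 0 and 28.6% against 20.6% below 0. The highest mean change of all tested members was that of *Hoxd8*, a gene of the middle of the cluster. Its intensities were 14049 in control and 18103 in treated on array 1 and 15125 and 21431 on array 2. Treated was above control on each array, by 0.37 and 0.50 on the log2 scale (adjusted p = 0.11 in limma), which is 1.35-fold. For 4 members with 2 kept probes in this range, *Hoxa3*, *Hoxa9*, *Hoxb3* and *Hoxd3os1*, the mean changes of the 2 probes were of the same sign, but on array 2 the second probe of *Hoxb3* gave -0.20 where the first gave 0.16, and that of *Hoxa9* gave 0.07 where the first gave -0.18.

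**Figure D3:**
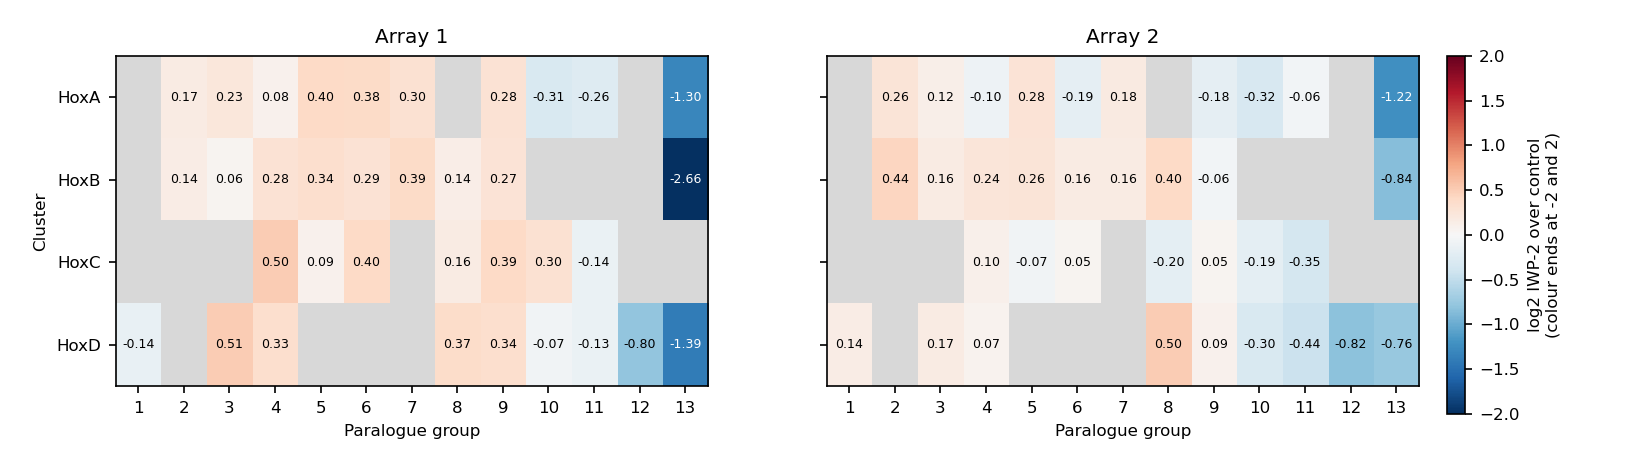
Log2 ratio of IWP-2 over control on each array by cluster and paralogue group, with the value in each cell (grey: no such gene, not tested, or not shown; colour ends at -2 and 2). Group 13 holds the lowest value of HoxA, HoxB and, on array 1, HoxD, and groups 1 to 9 range from -0.20 to 0.51.

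By cluster, the median changes were 0.03 and -0.14 in HoxA (14 genes), 0.28 and 0.20 in HoxB (10 genes), 0.30 and -0.07 in HoxC (7 genes), and -0.06 and 0.07 in HoxD (11 genes). Under loess, HoxB alone had a median of the same sign on both arrays, and 8 of its 10 tested members were higher on both, with *Hoxb13* lower on both. With median centring 5 of the 10 were higher on both arrays. Of all genes, 28.5% were higher on both under loess and 20% with median centring. The highest HoxB member was *Hoxb5os*, the transcript opposite *Hoxb5*, with 4831 in control and 5882 in treated on array 1 and 5829.8 and 7389 on array 2 (changes of 0.28 and 0.34, adjusted p = 0.225 in limma). In HoxC, the values of tested members ran from *Hoxc11* (-0.14 and -0.35) to *Hoxc4* (0.50 and 0.10). Neither passed the threshold (adjusted p = 0.404 and 0.379 in limma). The highest HoxA member was *Hoxa5*, with 3443 in control and 4547 in treated on array 1 and 3491 and 4225 on array 2 (adjusted p = 0.2 in limma). All mean changes of tested members towards higher values were at most 1.35-fold, whereas the called members were 1.75-fold to 3.77-fold lower. *Hottip*, 3.17-fold lower here, was 5.21-fold lower in the processed signals, where it was too dim to pass the intensity filter.

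Sense and antisense partners were compared by array. *Evx1os* changed by -2.21 and -1.78, within 0.11 and 0.04 of *Evx1*, from intensities of 1059 in control and 229 in treated on array 1 and of 1108 and 323 on array 2 (adjusted p = 0.00221 in limma). Its probe lies 9.91 kb from that of *Evx1*, on the other strand. *Hottip* was below *Hoxa13* by 0.34 and 0.47, and in the processed signals, where *Hottip* was dim, the difference was -1.10 and -1.09. *Hoxb5os* differed from *Hoxb5* by -0.06 and 0.09, and *Hoxd3os1* (0.10 and 0.16, adjusted p = 0.743 in limma) from *Hoxd3* by -0.41 and -0.01. None of these differences between partners was tested.

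The cluster intervals, taken between the outermost member probes, held 12 further transcripts, of which 10 were tested. Of these, *Evx1os* and 9530018H14Rik were called lower and 0 higher, beside the 1.15% called lower over all genes. 9530018H14Rik, which the array files describe as a cDNA from adult male urinary bladder, lies 2.74 kb downstream of the *Hoxa13* probe on the same strand. It had 4329 in control and 1346 in treated on array 1 and 4094 and 2079 on array 2, changes of -1.69 and -0.98 (adjusted p = 0.0202 in limma). Treated was the lower channel on each array, and whether the probe belongs to a longer form of *Hoxa13* was not tested. *Hoxaas2* and *Hoxaas3*, further along HoxA, had 0.12 and 0.22 and 0.49 and 0.23 without a call. In the 3 other clusters, the 6 tested transcripts had mean changes from -0.41 (LOC102634401, between *Hoxd3* and *Hoxd1*; adjusted p = 0.13 in limma) to 0.17 (AI448005), and none of them was called.

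Promoter sequences were looked up for the members from the RefSeq table (GRCm38.p6), as the 250 bases before each gene's start. The table held 26 of the 42 tested members and all 6 called ones. Motifs of a pair of kinds were searched on both strands, the core of TCF/LEF factors (CTTTGAA or CTTTGAT), which act in WNT signaling, and TTTATNG, a core of CDX and posterior HOX factors. The motifs do not overlap in the windows printed. Over 32851 promoters of the same length, 7.48% held the first and 9.81% the second. Among the 26 members, 2 held the TCF/LEF core, namely *Hoxd12*, which was called lower, and *Hoxd8*, the tested member with the highest mean change. The second motif was found in 5, of which *Evx1* and *Hottip* were called lower, and *Evx2*, *Hoxb8* and *Hoxd4* were not called. The other called members, *Hoxa13*, *Hoxd13* and *Hoxa11os*, held neither. A match of letters describes the window and shows no binding. The 3 promoters of called members with a match follow, 5′ to 3′ on the plus strand with the match in capitals (the second motif reads CAATAAA on this strand), at chr2:74674763-74675012 for *Hoxd12*, chr6:52262525-52262774 for *Hottip* and chr6:52313248-52313497 for *Evx1*.
Hoxd12: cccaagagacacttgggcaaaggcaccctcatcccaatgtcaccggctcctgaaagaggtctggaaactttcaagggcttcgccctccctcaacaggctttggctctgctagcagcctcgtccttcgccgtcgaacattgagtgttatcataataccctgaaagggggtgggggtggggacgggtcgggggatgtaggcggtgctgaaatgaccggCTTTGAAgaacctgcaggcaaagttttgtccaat
Hottip: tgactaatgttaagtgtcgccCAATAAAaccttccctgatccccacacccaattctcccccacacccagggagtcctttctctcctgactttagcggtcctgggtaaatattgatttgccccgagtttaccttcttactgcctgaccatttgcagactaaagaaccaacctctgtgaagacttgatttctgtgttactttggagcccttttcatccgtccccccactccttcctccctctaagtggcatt
Evx1: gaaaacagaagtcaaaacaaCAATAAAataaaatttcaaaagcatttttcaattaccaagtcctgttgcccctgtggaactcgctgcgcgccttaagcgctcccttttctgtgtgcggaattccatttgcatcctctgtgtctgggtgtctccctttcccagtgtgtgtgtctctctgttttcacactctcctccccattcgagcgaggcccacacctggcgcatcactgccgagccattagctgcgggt

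The genes through which HOX proteins act and are regulated mostly did not pass the test. Of the 9 tested HOX cofactors of the PBX, MEIS and PREP families, 0 were called in limma in either direction, with *Meis1* at 0.17 and 0.50 and *Meis2* at 0.27 and 0.35 (both at an unadjusted p under 0.05). Of 14 Polycomb and Trithorax genes, which keep *Hox* genes silent or active, 1 was called lower, beside 1.15% of all genes. The called gene was *Bmi1*, a subunit of the Polycomb repressive complex that marks histone H2A, with -0.85 and -0.57 (adjusted p = 0.0391 in limma). *Cbx2*, with -0.30 and -0.34, also had an unadjusted p under 0.05. Of the 14, 7 were lower on both arrays and 0 higher on both, beside 27.5% and 28.5% of all genes. *Wdr5*, the known protein partner of *Hottip*, had 0.06 and -0.11. Of 15 upstream regulators, 11 were tested and 0 called (1 of them, *Rarg*, with an unadjusted p under 0.05, at -0.35 on each array), while *Cdx2*, *Cdx4*, *Cyp26c1* and *Wnt3a* were not tested because their probes were near background. The list medians were 0.08, -0.07 and -0.08, beside 0.00 over all genes. At an unadjusted p under 0.05, 4.74% of all genes had a lower and 8.67% a higher value.

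Of 9 genes described as targets of posterior HOX proteins, 1 was called lower and 0 higher. At an unadjusted p under 0.05, 4 had a lower and 1 a higher value. Over all genes tested, 1.15% were called lower and 0.626% higher. Of all genes, 4.74% and 8.67% had such a p with a lower and a higher value. *Epha7*, an ephrin receptor gene, had -1.04 and -0.89 (adjusted p = 0.0115 in limma). *Bmp2*, a BMP ligand gene, had 0.33 and 0.86 (adjusted p = 0.119 in limma). *Six2*, a target in kidney mesenchyme, went opposite ways on the arrays, with 1.03 and -0.38, and *Gdnf* had -0.41 and -0.37, *Shh* -1.33 and -0.44 and *Epha4* -0.20 and -0.38 without a call. The list median was -0.17. Genes next to the clusters but outside them were not called either. Over 19 such neighbours the mean changes ran from -0.25 (*Lnpk*, next to *Evx2*) to 0.29 (*Skap2*), with 3 at an unadjusted p under 0.05 towards higher or lower values and a median of 0.01.

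The tissue label was checked against marker lists. All 8 tested markers of ureteric mesenchyme and all 9 of ureteric epithelium were well above background. Among the tissues that could have been carried along, 2 of 7 gut markers (*Cdx2* and *Cdh17*) were near background. So were 2 of 7 gonad markers (*Gata4* and *Lhx9*) and 4 of 7 tail bud markers. The other 5 gut and 5 gonad markers were measured and tested, as were all 8 of kidney mesenchyme. Control intensities of *Six2* were 5020 on array 1 and 11814 on array 2, and those of *Foxd1* 7318 and 11214. Of the 10 marker lists, that of the genital tubercle and cloacal mesenchyme had the lowest median. Of its 9 genes, all of them measured in these explants, 5 were called lower (*Wnt5a*, *Tbx5*, *Msx1*, *Tbx4* and *Isl1*) and 0 higher. Over all genes tested, 1.15% were called lower and 0.626% higher. The summed intensity of the list was 58261 in control and 36388 in treated on array 1 and 54453 and 36908 on array 2. *Isl1* made up most of these sums, with 47455 and 29795 on array 1 and 42454 and 28989 on array 2. *Wnt5a*, a WNT ligand gene, fell by 1.28 and 1.15, and *Isl1*, a marker of pericloacal mesenchyme, by 0.67 and 0.55 on the log2 scale. The median mean change of the list was -0.61, beside -1.17 for the tested genes of groups 12 and 13.

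Of the ureteric mesenchyme markers 3 of 8 were called lower (*Sox9*, *Tbx18* and *Tcf21*) and 0 higher, with a median of -0.52. Summed intensities of the 8 markers were 319546 in control and 259959 in treated on array 1 and 302789 and 257316 on array 2. The brightest, *Aldh1a2*, had 113422 and 119792 on array 1 and 105768 and 107009 on array 2. Over all genes tested, 1.15% were called lower and 0.626% higher. At an unadjusted p under 0.05, 4.74% of all genes had a lower and 8.67% a higher value. Ureteric epithelium had 0 of 9 called in limma (3 at an unadjusted p under 0.05) and a median of 0.05. Of the endothelial markers 2 of 7 were called higher (*Cldn5* and *Kdr*), with 0 lower and a median of 0.47, and neural crest and neuronal markers had a median of 0.36 with 0 of 9 called in limma (6 at an unadjusted p under 0.05). In kidney mesenchyme, *Six2*, *Foxd1*, *Eya1* and *Itga8* had opposite signs on the 2 arrays, and 0 of 8 were called in limma (3 at an unadjusted p under 0.05). Of the other lists, 1 of 5 hindgut and cloacal endoderm genes was called higher (*Sox17*, also an endothelial gene), 1 of 3 somite and body wall genes was called higher (*Meox1*), 1 of 5 gonad and mesonephros genes was called lower (*Sox9*, also on the ureteric list), and 0 of 3 tail bud genes were called or had an unadjusted p under 0.05. Whether the amount of pericloacal or other tissue in the pools had a part in the values of the group 12 and 13 genes, *Evx1* and *Hottip* was not tested.

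**Figure D4:**
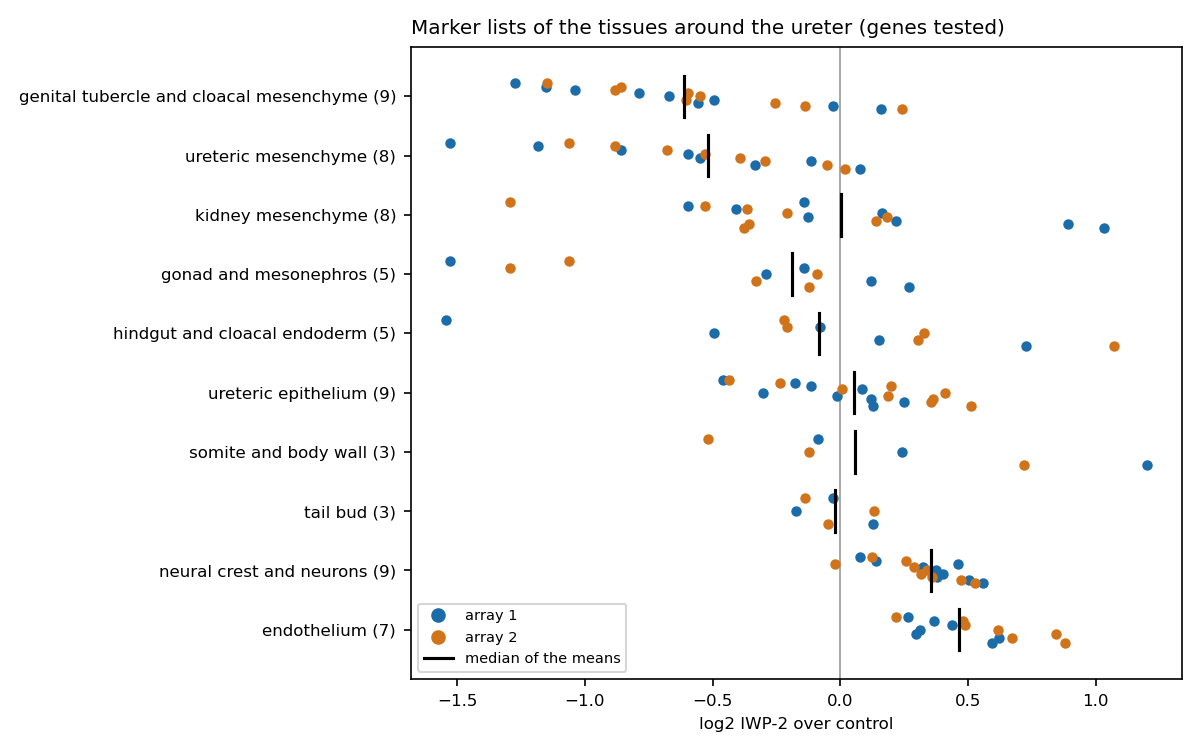
Log2 ratio of IWP-2 over control of the tested genes of 10 marker lists (array 1 blue, array 2 orange; black bars are medians of the mean changes, the number of genes in brackets). The lists of genital tubercle and cloacal mesenchyme and of ureteric mesenchyme have medians of -0.61 and -0.52, and those of neural crest and endothelium of 0.36 and 0.47.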

How the data were processed

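Scanner output was deposited for each array. Per the file headers it gives the mean intensity and local background intensity of each spot in both channels, a background-subtracted and dye-normalized processed intensity, and other deposited columns that mark outlier, saturated and well-above-background spots (Feature Extraction 12.2.0.7 in the headers, 10.7.3.1 in the submitters' processing notes; probe positions in mm9). The series table of the authors holds a score, the signed fold change of treated against control to 1 decimal. On array 1 the treated pool carried AlexaFluor647, on array 2 AlexaFluor555. Both arrays lay on 1 slide, and of 157716 non-control spots 4.51% and 3.30% were marked as outliers and 0 were saturated.

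In limma 3.58.1 (R 4.3.3), mean intensities were background-corrected by normexp (offset 50) and normalized by loess within each array. Outlier spots were dropped and the spots of a probe (4 printed) averaged. Probes entered the test if, for the treated or for the control RNA, over 0.5 of their spots exceeded background clearly on each array, and the brightest kept probe stood for a gene. Changes are log2 IWP-2 over control, fitted with lmFit and eBayes with the sign turned for array 2 and adjusted by Benjamini-Hochberg over all genes. The 2 arrays leave 1 residual degree of freedom, which limits the precision. Channel intensities are the normalized values with the offset. The procedure was tested on simulated spots.

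The members, gene lists and tests were chosen with earlier results of these data known. Values by array are given for members past the threshold, all of groups 12 and 13, the *Evx* genes, the noncoding transcripts and the highest and lowest member of each cluster, and other genes are named as members of a list. Lists cover HOX cofactors, Polycomb and Trithorax genes, upstream regulators, posterior HOX targets, cluster neighbours and markers of 10 tissues. Sequences come from the array files and RefSeq. The values of 1 member are not reported here, although it is included in the counts and medians.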

Additional observations from a re-analysis of the deposited data

How the results depend on the processing

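Each result was recomputed under the alternatives, 2 of which (trend prior alone and robust prior alone) were chosen after seeing the data. The 14 members recomputed 1 by 1 kept the sign of their mean change in all of them, whereas *Hoxc8* and *Hoxd1* with median centring and *Hoxc5* and *Hoxd1* on processed signals did not. The 6 members called lower became 2 with median centring. Under that centring the genes tested had medians of 0.11 on array 1 and -0.14 on array 2. The count was 3 with the series table (5 higher), and 2 when the channels were fitted separately with no replicate block. Of all 20124 genes, 232 were called lower in the main setting, 36 with median centring and 15 with separate channels and no block. The series table called 1322 of all genes lower and 1038 higher. With the array as replicate block 5 members were called lower, beside 84 of all genes. A dye term beside that block could not be fitted, since it leaves no residual degrees of freedom. In the remaining 8 settings 5 to 7 members were called lower, beside 98 to 293 of all genes tested. *Hottip* passed in all 12 settings (adjusted p 0.000402 to 0.0491), *Evx1* in 11 (0.000305 to 0.142), *Hoxa13* in 10 (0.000728 to 0.0733), *Hoxd12* in 10 (0.00374 to 0.265), *Hoxa11os* in 9 (0.0025 to 0.155) and *Hoxd13* in 6. The median change of groups 1 to 3, 0.18, moved to 0.14 with median centring and with no filter on dim probes, to 0.21 with the mean over kept probes and to 0.20 with the series table. On single arrays it was 0.14 to 0.16, while the HoxA median ran from -0.14 to 0.027 and the HoxB median from 0.20 to 0.28. The 2 members past intensity 100 and fold change 2 became 6 at a fold change of 1.5, and 2 to 4 on a single array, 4 of them on array 1. The cause of these shifts was not tested. With 2 arrays, single-array values have no test.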
